A study of Mus musculus with 15 samples.

Results

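Genes of mitosis, of the kinesin motor family and of the centromere were followed in mouse macrophages exposed to mineral particles. The set held every entry of the deposited gene table whose name starts with Kif (34 genes) or Cenp (21 genes) and 29 further named genes of cell division, 84 of the 10653 genes in all. All 84 passed the filter on low values and none was listed at 0 in any library. The rule takes genes by name and reads no measured value, but it was drawn up with earlier results of these data known. The cells were MPI cells, a self-renewing macrophage line named after the Max Planck Institute, which was raised from fetal liver of female C57BL6/J mice, needs GM-CSF to grow and serves as a model of alveolar macrophages. RNA was sequenced 24 h after exposure to riebeckite asbestos (9 µg/cm²), riebeckite cleavage fragments (40 µg/cm²), tremolite asbestos (5 µg/cm²) or tremolite cleavage fragments (60 µg/cm²), or from untreated cells. Riebeckite and tremolite are amphibole minerals, asbestos is their habit of thin fibres, and cleavage fragments are non-asbestiform particles of the same mineral. Doses were matched by surface area and so differed in mass. Each of the 5 groups held 3 libraries of this 1 line, and whether they were grown separately is not in the labels, so the p-values reflect the spread among these libraries, which may be technical.

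Entry into mitosis is driven by the kinase Cdk1 with its cyclins and by Plk1. Chromosomes then attach through kinetochores, which assemble on centromeres marked by the histone variant Cenpa, to a spindle that mitotic kinesins build, and checkpoint proteins hold back the anaphase-promoting complex until attachment is complete. Other kinesins carry vesicles, organelles and receptors along microtubules in cells that do not divide. Macrophages of the alveolus are known to maintain themselves by division in the lung, and many genes of late cell cycle carry the promoter motifs CHR and CCAAT.

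Values are FPKM, a measure scaled by transcript length and library size, so levels can be set beside each other between genes. A level is given per library or as mean ± SD with n = 3. Fold changes come from limma on log2(FPKM + 1), 1 fit of all 15 libraries over 10616 genes, and understate the change of genes with low FPKM. A gene is called higher or lower where the Benjamini-Hochberg adjusted p over all genes of that comparison was under 0.05. The sum of FPKM per library ranged from 257329 to 273570 and read depth is unknown. Libraries of 1 group had a Spearman correlation across genes of 0.988 to 0.992, those of different groups of 0.963 to 0.990, and 0 pairs were identical. The macrophage label was borne out in that all 12 macrophage markers sought were measured, with summed levels of 6506 to 8487 FPKM over all libraries. Lyz2 alone had group means of 3950 to 5085 FPKM. With each particle 8 of the 12 were called higher and 3 lower, to be read against the shares of all genes given below. Means of Fabp4 and Mrc1 went from 95.7 and 329.5 FPKM in untreated cells to 33.4 and 189.3 after riebeckite asbestos. Of the neutrophil markers only Cxcr2 and S100a8 were measured, with a sum of 28.2 to 33.8 FPKM in untreated cells and 68.3 to 71.4 FPKM after riebeckite asbestos. This sum was 68.8 to 72.1 FPKM for riebeckite fragments, 37.0 to 46.1 for tremolite asbestos and 36.3 to 39.8 for tremolite fragments. Of 4 epithelial markers only Cdh1 was measured, at 52.4 to 53.8 FPKM in untreated cells and, in the same order of particles, at 24.3 to 27.1, 27.9 to 28.1, 35.2 to 36 and 32.1 to 39.6, and it was called lower each time. Markers of mast cells, erythroid cells, fibroblasts, lymphocytes and hepatocytes were 0 of 4, 4, 4, 4 and 3 measured. Transcripts of the mitochondrial genome took 8.54 to 8.86% of summed FPKM in untreated cells and 6.08 to 6.90% after riebeckite asbestos. They took 7.455 to 8.173% with riebeckite fragments, 7.987 to 8.331% with tremolite asbestos and 8.102 to 8.623% with tremolite fragments. The part of these shifts in the results was not tested.

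Promoters were read from RefSeq (build GRCm38.p6) for 71 of the 84 genes. The 120 bases before the start are printed for 5 genes that the results turn on, namely Top2a and Kif11, which were lower with every particle, Plk1, which was higher with every particle, and the proliferation genes Cdk1 and Mki67. Capitals mark the CHR (TTTGAA or TTCGAA) and the CCAAT motif on either strand, the reverse strand reading TTCAAA and ATTGG.
Top2a, chr11:99024190-99024309, minus strand: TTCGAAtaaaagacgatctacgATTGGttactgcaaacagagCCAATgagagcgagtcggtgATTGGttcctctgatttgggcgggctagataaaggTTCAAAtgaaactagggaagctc
Kif11, chr19:37376262-37376381, plus strand: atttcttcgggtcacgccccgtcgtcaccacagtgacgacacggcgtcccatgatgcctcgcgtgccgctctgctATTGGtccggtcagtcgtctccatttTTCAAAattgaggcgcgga
Plk1, chr7:122159315-122159434, plus strand: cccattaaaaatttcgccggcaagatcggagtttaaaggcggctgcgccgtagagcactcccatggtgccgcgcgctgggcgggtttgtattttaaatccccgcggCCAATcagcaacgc
Cdk1, chr10:69352913-69353032, minus strand: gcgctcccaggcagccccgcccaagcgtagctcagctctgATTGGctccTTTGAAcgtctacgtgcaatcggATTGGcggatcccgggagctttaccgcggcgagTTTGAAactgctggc
Mki67, chr7:135716380-135716499, minus strand: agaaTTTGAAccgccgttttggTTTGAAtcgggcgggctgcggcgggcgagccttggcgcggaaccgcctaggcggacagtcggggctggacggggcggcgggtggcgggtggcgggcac
Both genes with lower levels, Top2a and Kif11, held both motifs in these bases, Plk1 held CCAAT alone, Cdk1 held both, and Mki67 held CHR alone. Farther out, Mki67 also held CCAAT, at 188, 166 and 141 bases before the start, so it held both within 250 bases. Over the 250 bases before the start, CHR was found in 26.8% of the 71 promoters and in 12.3% of 8389 promoters of the deposited genes. CCAAT was found in 59.2% and 37.2%, and both together in 23.9% and 5.08%. A match of 1 motif may share a letter with the other, and each was counted by itself. Mitotic and centromere genes held both in 28.1% of 57 promoters. The transport and other kinesins held both in 7.14% of 14, which was the promoter of Kif24 alone. Among genes called lower with at least 1 particle the share was 17.6% of 34, and among those called with none it was 30.8% of 26. The double motif was not more frequent among the genes that fell than among those not called. A match is a description of letters and does not show that a factor binds.

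Against untreated cells, riebeckite asbestos lowered 39 of the 84 genes and raised 9, riebeckite fragments lowered 20 and raised 6, tremolite asbestos lowered 19 and raised 3, and tremolite fragments lowered 19 and raised 6. Over all genes tested, limma called 45.3, 38.4, 23.9 and 27.5% in these comparisons, where 48, 26, 22 and 25 of the 84 genes were called. The lower calls made up 46.4% of the 84 genes after riebeckite asbestos and 24.3% of all genes. For tremolite asbestos the lower shares were 22.6% and 13.9%, and for tremolite fragments 22.6% and 15%. For riebeckite fragments they were 23.8% and 23.1%, near the background and thus no result about these genes. Libraries of the treated and untreated groups did not overlap for 54, 38, 47 and 39 of the 84 genes, where this held for 55.3, 49.1, 39.9 and 45.1% of all genes, and with the treated group lower for 41, 28, 36 and 30, where 29.6, 29.9, 23.9 and 25.5% of all genes did so. Higher calls were 21, 15.3, 10 and 12.5% of all genes. Median log2 fold changes over the 84 genes were -0.13, -0.07, -0.11 and -0.09 in the same order, against -0.02, -0.04, -0.03 and -0.02 over all genes. They stayed negative after TMM rescaling (-0.11, -0.02, -0.08 and -0.07) and after quantile normalization (-0.13, -0.05, -0.09 and -0.07). Changes were small on the log2(FPKM + 1) scale, where 0 of the 84 genes reached 1. That scale understates the changes of genes with low FPKM, such as Kifc3. In bulk RNA, fewer dividing cells and less RNA per cell cannot be told apart.

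The 4 comparisons share the same 3 untreated libraries, so their calls are not independent of each other. With that limit, 10 genes were lower with all 4 particles (Anln, Aurkb, Cenpo, Kif11, Kif13a, Kif15, Kif23, Ndc80, Nuf2 and Top2a) and Plk1 and Kif1c were higher with all 4. A further 28 genes were called with no particle, 43 were lower and 13 higher with at least 1, and 0 were called in opposite directions. Lower with riebeckite asbestos and no other particle were 14 genes, and higher 4. Matching counts over all genes tested were not made, so whether any of these counts exceeds the background is not known. After TMM rescaling and after quantile normalization 7 of the 10 genes kept all 4 calls, and Aurkb, Ndc80 and Nuf2 lost at least 1, while Plk1 and Kif1c kept theirs. With only the groups compared in the fit 6 of the 10 kept all 4 calls (Cenpo, Kif15, Kif23 and Ndc80 did not), and with sums of transcripts 5 did (Anln, Kif11, Kif13a, Kif23 and Top2a), and in both Plk1 was no longer higher with all 4. Leaving out single libraries, between 5 and 12 genes were lower with all 4. The 5 without untreated replicate 2 were the fewest, and all were among the 10. Without untreated replicate 2 or 3 or tremolite asbestos replicate 3, Kif1c alone was higher with all 4.

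TMM rescaling changed the split of higher and lower calls to 10 and 16 for riebeckite fragments and to 6 and 14 for tremolite asbestos, and quantile normalization to 9 and 18 for riebeckite fragments. The count for tremolite asbestos was 14 without untreated replicate 2. Of the calls, 28 of 48, 17 of 26, 10 of 22 and 12 of 25 held without each library of their comparison in turn. The summed level of the 84 genes was 951 to 1010 FPKM in untreated libraries, 942 to 961 after riebeckite asbestos, 925 to 985 with riebeckite fragments, 914 to 976 with tremolite asbestos and 941 to 978 with tremolite fragments, and these ranges overlapped.

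**Figure D1:**
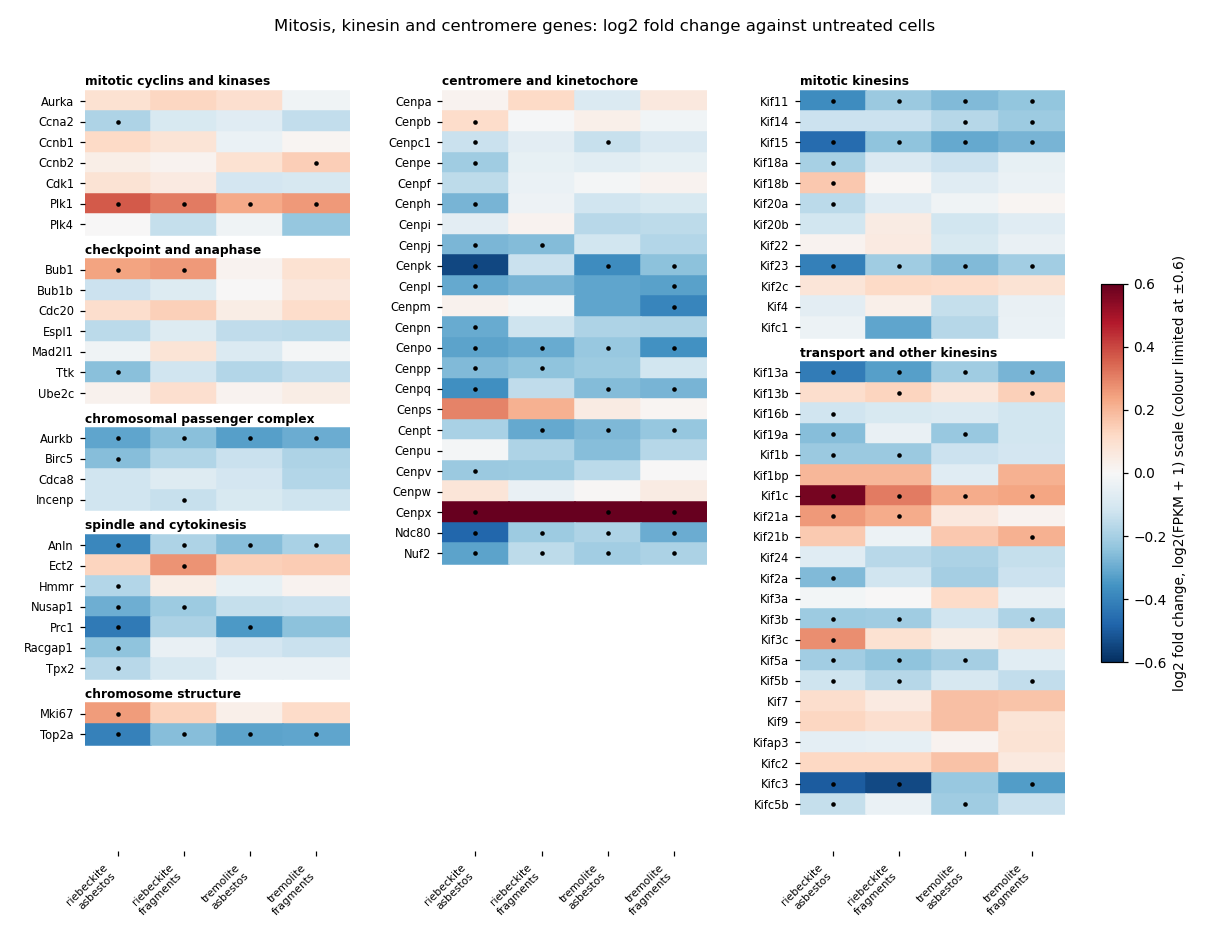
Log2 fold change against untreated cells, on the log2(FPKM + 1) scale, for the 84 genes by role (vertical) and particle (horizontal). Colours are limited at the ends of the bar and dots mark calls by limma (adjusted p under 0.05). Blue prevails in the riebeckite asbestos column, where 39 genes were lower and 9 higher.

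**Figure D2:**
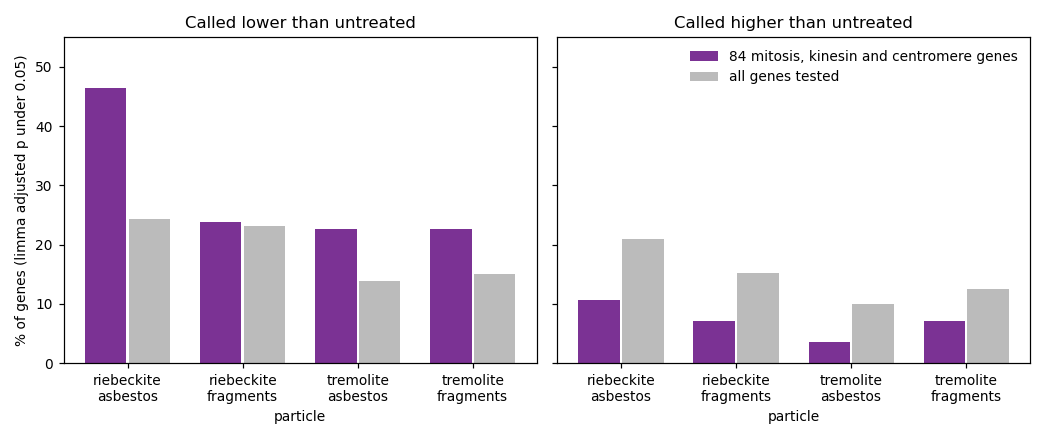
Percent of genes called lower (left) and higher (right) than in untreated cells with each particle, for the 84 genes (purple) and all 10616 genes tested (grey). Lower calls took 46.4% of the 84 genes after riebeckite asbestos against 24.3% of all genes.

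Among the mitotic cyclins and kinases the clearest change was a rise of Plk1, the kinase of mitotic entry and spindle assembly (ENSMUSG00000030867.7, chromosome 7, 122159439 to 122169873, GRCm38). Its levels were 17.8, 15.4 and 16.5 FPKM in untreated libraries, 20.4, 23.3 and 21.4 after riebeckite asbestos, 20.9, 20.3 and 21 with riebeckite fragments, 19.3, 18 and 21.4 with tremolite asbestos and 20.3, 20.3 and 19.3 with tremolite fragments. Every treated library lay above every untreated one. The log2 fold changes were 0.37, 0.31, 0.23 and 0.26 (SE 0.06, limma adjusted p = 0.000444, 0.00195, 0.0218 and 0.00902). The call with tremolite asbestos ended without untreated replicate 2 (adjusted p = 0.0965), untreated replicate 3 (0.0581) or tremolite asbestos replicate 3 (0.095), and with sums of transcripts 3 of the 4 calls ended, all but that with riebeckite asbestos.

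Cdk1, the central kinase of mitosis, was at 16.2, 16.0 and 16.2 FPKM in untreated libraries and was called with no particle (0.09, 0.05, -0.11 and -0.10, limma adjusted p from 0.0924 to 0.389). Both riebeckite means, 17.2 ± 0.766 and 16.8 ± 0.701 FPKM, lay above and both tremolite means, 14.9 ± 0.451 and 15 ± 0.801 FPKM, below the untreated mean of 16.1 ± 0.113 FPKM. The cyclin partner Ccnb1 was not called either (0.12, 0.08, -0.04 and 0.01), nor was the spindle pole kinase Aurka or the centriole kinase Plk4. Ccnb2, the other B cyclin of the set, rose with tremolite fragments from 33.3 ± 1.30 to 37.0 ± 1.52 FPKM (0.15, limma adjusted p = 0.0105), and the call ended without untreated replicate 2 (0.0535). Ccna2, the cyclin of S and G2 phase, fell with riebeckite asbestos from 14 ± 1.10 to 12.2 ± 0.868 FPKM (-0.18, limma adjusted p = 0.0425), and 4 of 6 single omissions ended that call, with adjusted p up to 0.165 without untreated replicate 3.

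Of the checkpoint and anaphase genes, Bub1, a kinase of the spindle checkpoint at kinetochores, rose with both riebeckite particles. Its levels were 18.2, 18.7 and 19.0 FPKM in untreated libraries, 21.4, 23.2 and 22.3 after riebeckite asbestos and 22.0, 21.9 and 23.6 with riebeckite fragments, without overlap. After tremolite asbestos they were 18.2, 20.8 and 17.9, spanning the untreated range, and with tremolite fragments between 19.6 and 20.2. Fold changes were 0.24, 0.26, 0.02 and 0.09 (SE 0.05, limma adjusted p = 0.00208, 0.00158, 0.827 and 0.232), and both riebeckite calls held without each library. Ttk, the checkpoint kinase also called Mps1, fell with riebeckite asbestos from 4.35 ± 0.0218 to 3.5 ± 0.287 FPKM (-0.25, limma adjusted p = 0.00657). Cdc20, the activator of the anaphase-promoting complex, its ubiquitin-conjugating enzyme Ube2c, the checkpoint proteins Mad2l1 and Bub1b and the cohesin protease gene Espl1 were called with no particle. Cdc20 had fold changes of 0.11, 0.14, 0.04 and 0.11 (SE 0.08) and Ube2c of 0.03, 0.10, 0.02 and 0.04 (SE 0.04).

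The chromosomal passenger complex corrects faulty attachments and prepares cytokinesis. Its kinase Aurkb was at 10.3, 10.4 and 8.92 FPKM in untreated libraries and at 8.26, 7.73 and 7.13 after riebeckite asbestos, 8.14, 8.66 and 7.5 with riebeckite fragments, 8.70, 7.34 and 6.90 with tremolite asbestos and 7.08, 7.82 and 8.6 with tremolite fragments. All 12 treated libraries lay below the lowest untreated one. The fold changes were -0.32, -0.25, -0.33 and -0.30 (SE 0.09, limma adjusted p = 0.0113, 0.04, 0.0166 and 0.025), and the calls with the last 3 particles each ended in 4 of 6 single omissions, with adjusted p up to 0.134, 0.0729 and 0.107. Birc5, survivin, fell with riebeckite asbestos from 20.5 ± 1.06 to 17.0 ± 1.5 FPKM (-0.26, limma adjusted p = 0.00851), a call that held without each library, and with the others its values were -0.18, -0.13 and -0.18, not called. The scaffold gene Incenp was called with riebeckite fragments (-0.14, limma adjusted p = 0.0411, up to 0.154 in single omissions), and Cdca8, borealin, with no particle.

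Of the 23 centromere and kinetochore genes, 13 were lower and 2 higher with riebeckite asbestos, 6 and 0 with riebeckite fragments, 7 and 1 with tremolite asbestos, and 8 and 1 with tremolite fragments. These 23 include Cenpj, a centriole gene taken in by its name and called lower with both riebeckite particles. The lower shares were 56.5, 26.1, 30.4 and 34.8%, against 24.3, 23.1, 13.9 and 15% of all genes, so that the share with riebeckite fragments was near the background. Ndc80 and Nuf2 form the rod that holds the microtubule at the kinetochore, and both were lower with all 4 particles. Ndc80 (ENSMUSG00000024056.9, chromosome 17, 71496100 to 71526857) was at 15.3, 16.2 and 18.1 FPKM in untreated libraries and at 10.9, 12.5 and 11.4 after riebeckite asbestos. It was at 13.8, 14 and 14.4 with riebeckite fragments, 14.6, 15 and 13.7 with tremolite asbestos and 13.4, 12.6 and 13.7 with tremolite fragments. No treated library reached the lowest untreated level, and the riebeckite asbestos libraries were the lowest. The fold changes were -0.47, -0.22, -0.18 and -0.30 (SE 0.06, limma adjusted p = 3.86e-05, 0.0136, 0.0496 and 0.00302). The call with tremolite asbestos, just under the threshold, ended in 5 of 6 single omissions (adjusted p up to 0.197, without untreated replicate 3) and after TMM rescaling (0.0937), and that with riebeckite fragments ended without untreated replicate 3 (0.0666). Nuf2 went from 8.0, 8.39 and 8.47 FPKM to 6.30, 6.51 and 6.52 after riebeckite asbestos (-0.32, limma adjusted p = 0.000125). With the other particles its fold changes were -0.16, -0.21 and -0.19, and the call with riebeckite fragments ended without untreated replicate 2 or 3 or fragment replicate 1 (adjusted p up to 0.0713).

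The inner kinetochore proteins named Cenp form the network between centromeric chromatin and the Ndc80 complex. The log2(FPKM + 1) scale understates changes of genes with low FPKM, and an order by size depends on it. On that scale Cenpk had the largest fall of the 84 genes with riebeckite asbestos, from 2.63, 2.41 and 2.98 FPKM to 1.44, 1.47 and 1.62 (-0.55, SE 0.06, limma adjusted p = 1.29e-05). It was at 1.75, 1.92 and 1.82 after tremolite asbestos (-0.38), at 2.17, 1.93 and 2.18 with tremolite fragments (-0.25, ending without untreated replicate 3, 0.0528, or fragment replicate 2, 0.0519) and at 2.28, 2.23 and 2.53 with riebeckite fragments, where it was not called (-0.13, limma adjusted p = 0.121). With sums of transcripts in place of gene values, Cenpk with tremolite asbestos was at 0.15 and not called. Of its partners, Cenph was lower with riebeckite asbestos only (-0.28, limma adjusted p = 0.0123, 0.0615 without untreated replicate 3 and 0.0527 without asbestos replicate 3), and Cenpi was called with no particle.

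Cenpo, of another subcomplex, fell with all 4 particles, from 3.18, 3.41 and 2.98 FPKM to 2.18, 2.56 and 2.32 with riebeckite asbestos and between 2.10 and 2.71 with the others (-0.32, -0.30, -0.23 and -0.36, limma adjusted p = 0.00118, 0.00218, 0.0194 and 0.000881). Its call with tremolite asbestos ended without untreated replicate 2 (adjusted p = 0.0838) or asbestos replicate 2 (0.0769). Its partner Cenpq was lower with riebeckite asbestos (-0.37), tremolite asbestos (-0.26) and tremolite fragments (-0.28), and the last 2 calls ended without untreated replicate 3 or replicate 1 of the treated group (adjusted p up to 0.083). Cenpp was lower with both riebeckite particles (-0.27 and -0.24, adjusted p up to 0.0568 and 0.105 in single omissions), and Cenpu with none. Cenpt, which links chromatin to Ndc80, was lower with riebeckite fragments (-0.31, limma adjusted p = 0.00643) and with both tremolite particles (-0.27 and -0.23), the latter calls ending in 5 and 4 of 6 single omissions.

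Cenpa, the centromeric histone, was called with no particle, at 7.97 ± 0.485 FPKM in untreated cells (0.02, 0.12, -0.09 and 0.07, SE 0.10). Cenpf was not called either (-0.16, -0.04, -0.01 and 0.02, SE 0.06), and Cenpe, a kinesin that moves chromosomes to the spindle equator, was called with riebeckite asbestos alone (-0.21, limma adjusted p = 0.0492), a call that ended in 5 of 6 single omissions (up to 0.198). Cenpb, which binds centromeric repeats, was higher with riebeckite asbestos by 0.11 (limma adjusted p = 0.0264), and this call also ended in 5 of 6 single omissions (up to 0.0852). Cenpc1, which binds centromeric chromatin, was called lower with riebeckite asbestos (-0.13, limma adjusted p = 0.0236) and tremolite asbestos (-0.14, 0.0359), ending in 3 and 5 of 6 single omissions (up to 0.0946 and 0.133). Cenpj, a centriole protein despite its name, was lower with both riebeckite particles (-0.27 and -0.26), ending in 3 and 4 of 6 single omissions.

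Cenpx, a small histone-fold protein (chromosome 11, 120710942 to 120713738), was chosen for description after its values were seen, since its libraries fell apart within groups. It was at 18.3, 15.1 and 17.3 FPKM in untreated libraries, 32.9, 18 and 33.1 after riebeckite asbestos, 16.6, 33.6 and 31.9 with riebeckite fragments, 32.0, 32.3 and 28.9 with tremolite asbestos and 31.6, 33.2 and 31.2 with tremolite fragments. Riebeckite asbestos replicate 2 and riebeckite fragment replicate 1 lay at the untreated level, and no library lay between 18.3 and 28.9. Cenpx was called higher with riebeckite asbestos (0.65, SE 0.24, limma adjusted p = 0.0439), tremolite asbestos (0.84, 0.0224) and tremolite fragments (0.89, 0.0152), and not with riebeckite fragments (0.61, 0.0659). The call with riebeckite asbestos ended in 5 of 6 single omissions (up to 0.155) and that with tremolite asbestos in 4 (up to 0.0775), while that with tremolite fragments ended without untreated replicate 2 (0.0555). Kif1bp, a kinesin-binding protein, and Kifc1, a minus-end mitotic kinesin that shares near-identical sequence with Kifc5b, likewise had libraries apart within groups, and neither was called with any particle. Reads of Kifc1 and Kifc5b may be split uncertainly.

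**Figure D3:**
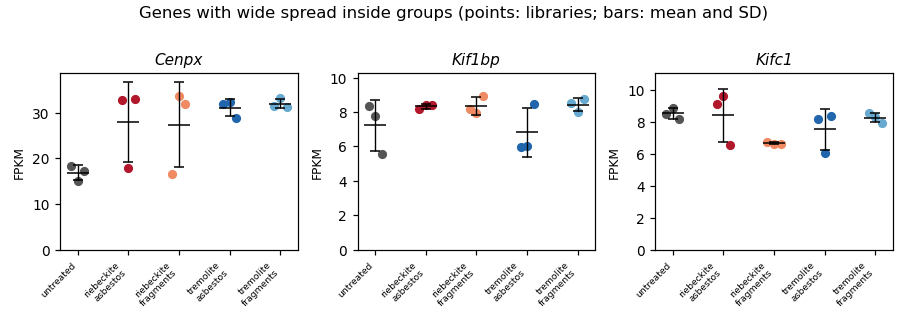
Levels in FPKM (vertical) of Cenpx, Kif1bp and Kifc1 in each library (points) of the 5 groups (horizontal), with group mean and SD (bars, n = 3). For Cenpx, riebeckite asbestos replicate 2 (18 FPKM) and riebeckite fragment replicate 1 (16.6 FPKM) sit with the untreated libraries.

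Among the spindle and cytokinesis genes 6 of 7 were lower with riebeckite asbestos and 0 higher, against 2 lower and 1 higher with riebeckite fragments, 2 and 0 with tremolite asbestos and 1 and 0 with tremolite fragments. The lower shares were 85.7, 28.6, 28.6 and 14.3%, against 24.3, 23.1, 13.9 and 15% of all genes. Those with the last 3 particles rest on 1 or 2 genes each, and those with both kinds of fragments were near the background. Anln, anillin, the scaffold of the contractile ring, was at 9.07, 9.79 and 9.79 FPKM in untreated libraries, 6.82, 7.36 and 6.94 after riebeckite asbestos, 8.01, 8.73 and 8.11 with riebeckite fragments, 7.45, 8.17 and 7.91 with tremolite asbestos and 7.92, 8.15 and 8.58 with tremolite fragments. No treated library overlapped the untreated ones, and all 4 calls (-0.39, -0.19, -0.26 and -0.20, SE 0.05, limma adjusted p = 2.86e-05, 0.01, 0.00225 and 0.0102) held without each library. Prc1, which bundles microtubules of the spindle midzone, fell with riebeckite asbestos from 9.18 ± 0.937 to 6.58 ± 0.558 FPKM (-0.42, limma adjusted p = 0.00876). With tremolite asbestos it was called at -0.34 (0.0456), and 5 of 6 single omissions ended that call (up to 0.157). Racgap1, the GTPase activator that pairs with Kif23 in centralspindlin, and the spindle protein Nusap1 fell with riebeckite asbestos by 0.24 and 0.29. Nusap1 was also called with riebeckite fragments (-0.22), ending in 3 of 6 single omissions (up to 0.0724). Ect2, which centralspindlin recruits for cytokinesis, was the one gene of this group to rise, with riebeckite fragments, from 2.78 ± 0.0546 to 3.55 ± 0.200 FPKM (0.27, limma adjusted p = 0.00223). The spindle proteins Tpx2 and Hmmr were called lower with riebeckite asbestos (-0.16 and -0.17), and 4 and 5 of 6 single omissions ended these calls (up to 0.142 and 0.192).

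Top2a and Mki67, both used as proliferation markers, went in opposite directions with riebeckite asbestos. Top2a, the topoisomerase that untangles sister chromatids (ENSMUSG00000020914.17, chromosome 11, 98992943 to 99024189), was at 38.4, 40.1 and 41.9 FPKM in untreated libraries, 29.6, 30.7 and 29.7 after riebeckite asbestos, 31.9, 34.3 and 34.0 with riebeckite fragments, 30.2, 32.8 and 32.6 with tremolite asbestos and 31.1, 31.4 and 33.6 with tremolite fragments. The highest treated level, 34.3 FPKM, lay below the lowest untreated one. Its fold changes were -0.41, -0.26, -0.32 and -0.32 (SE 0.05, limma adjusted p = 8.76e-06, 0.000586, 0.000187 and 0.00017), and the calls held without each library. Mki67, which coats mitotic chromosomes and had the highest untreated level of the 84 genes, was at 74.9, 83.5 and 88.4 FPKM in untreated libraries and at 96.5, 96.1 and 102 after riebeckite asbestos. The fold change was 0.26 (SE 0.07, limma adjusted p = 0.00707), and after quantile normalization it was 0.19 and no longer called (adjusted p = 0.0799). With riebeckite fragments Mki67 was at 84.7, 94.2 and 92.3, with tremolite asbestos at 76.9, 91.8 and 83.9 and with tremolite fragments at 88.8, 88.5 and 89.7, and none of these was called (0.14, 0.03 and 0.12). After TMM rescaling riebeckite fragments gave 0.19 with an adjusted p = 0.0339.

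**Figure D4:**
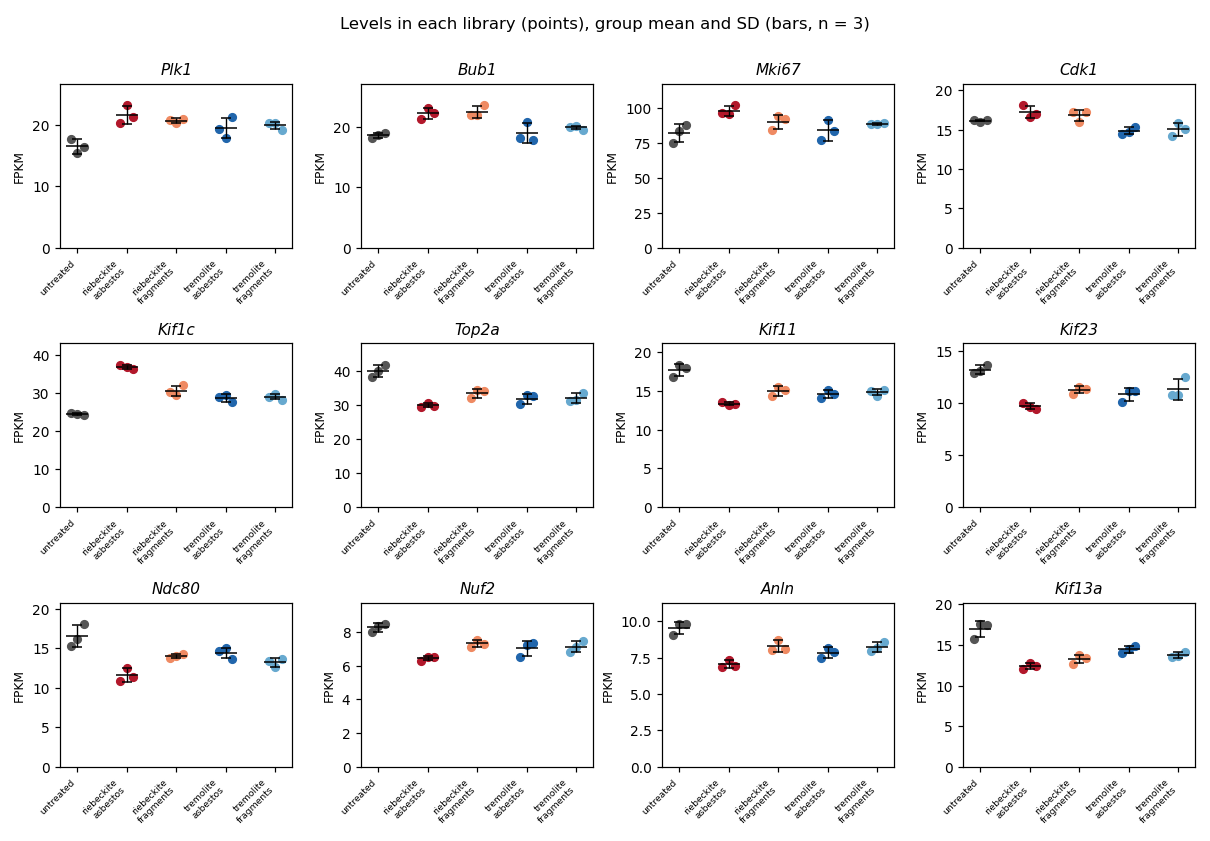
Levels in FPKM (vertical) of 12 genes in each library (points) of the 5 groups (horizontal), with group mean and SD (bars, n = 3). Top2a is at 38.4 FPKM or more in untreated libraries and at 34.3 or less in treated ones, and Kif1c is highest in the 3 riebeckite asbestos libraries.

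Of the 12 mitotic kinesins, 5 were lower and 1 higher with riebeckite asbestos, 3 and 0 with riebeckite fragments, and 4 and 0 with each tremolite particle. The lower shares were 41.7, 25, 33.3 and 33.3%, against 24.3, 23.1, 13.9 and 15% of all genes. The 25% with riebeckite fragments was thus near the background. Kif11, also called Eg5, slides antiparallel microtubules apart and separates the spindle poles (ENSMUSG00000012443.3, chromosome 19, 37376403 to 37421859). It was at 16.8, 18.4 and 17.9 FPKM in untreated libraries, 13.6, 13.2 and 13.3 after riebeckite asbestos, 14.3, 15.5 and 15.2 with riebeckite fragments, 14, 15.1 and 14.6 with tremolite asbestos and 15, 14.4 and 15.2 with tremolite fragments. Untreated and treated libraries did not overlap. Its fold changes of -0.38, -0.22, -0.26 and -0.24 (SE 0.04, limma adjusted p = 1.01e-05, 0.00103, 0.000628 and 0.00104) were called without each library as well. Kif15, which acts beside Kif11 on the spindle, fell from 6.07 ± 0.712 to 4.11 ± 0.292 FPKM with riebeckite asbestos (-0.46, limma adjusted p = 0.000145) and by 0.24, 0.31 and 0.28 with the others, where the call with riebeckite fragments ended without untreated replicate 2 or 3 (adjusted p up to 0.0764). Kif23, the motor of centralspindlin, was at 12.8, 13.1 and 13.7 FPKM in untreated libraries and at 10.0, 9.55 and 9.45 after riebeckite asbestos (-0.41, limma adjusted p = 5.59e-05). With the others it fell by 0.21, 0.27 and 0.21, and the call with tremolite fragments ended without untreated replicate 3 or fragment replicate 1 or 2 (up to 0.0636).

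The remaining mitotic kinesins moved with fewer particles. Kif14, a kinesin of cytokinesis, was lower with both tremolite particles (-0.17 and -0.22, limma adjusted p = 0.0302 and 0.00781), the former ending in 4 of 6 single omissions (up to 0.118), and was at -0.13 and not called with both riebeckite particles. Kif18a, which dampens chromosome movement, and Kif20a, a midzone motor, were lower with riebeckite asbestos only (-0.20 and -0.16), and their calls held without each library. Kif18b was higher with riebeckite asbestos (0.16, limma adjusted p = 0.0271), ending in 4 of 6 single omissions (up to 0.12). Kif2c, which takes microtubules apart at centromeres, Kif4 and Kif22, both chromosome-bound motors, Kif20b and Kifc1 were called with no particle. Kif2c had fold changes of 0.08, 0.12, 0.11 and 0.09 (SE 0.05).

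The 22 transport and other kinesins are all Kif genes not listed as mitotic, and not all of them are transport motors. They include the non-motor partners Kifap3 and Kif1bp, Kif2a, and Kifc5b, near-identical in sequence to the mitotic Kifc1. Kifc5b was called lower with riebeckite and tremolite asbestos, ending in 5 and 2 of 6 single omissions. Kif2a was called lower with riebeckite asbestos, ending in 2 of 6. The class had 10 lower and 3 higher with riebeckite asbestos, 6 and 3 with riebeckite fragments, 4 and 1 with tremolite asbestos and 4 and 3 with tremolite fragments. The lower shares were 45.5, 27.3, 18.2 and 18.2%, against 24.3, 23.1, 13.9 and 15% of all genes, near the background for all but riebeckite asbestos. The higher shares were 13.6, 13.6, 4.55 and 13.6%, against 21, 15.3, 10 and 12.5% of all genes. Kif1c, a vesicle motor known from podosomes of macrophages (ENSMUSG00000020821.17, chromosome 11, 70700548 to 70731964), had the smallest p of the 84 genes with riebeckite asbestos. It was at 24.6, 24.5 and 24.2 FPKM in untreated libraries, 37.4, 36.9 and 36.4 after riebeckite asbestos, 30.2, 29.5 and 32.1 with riebeckite fragments, 28.9, 29.6 and 27.6 with tremolite asbestos and 29.0, 29.6 and 28.3 with tremolite fragments. All treated libraries lay above all untreated ones, and riebeckite asbestos above the rest. The fold changes were 0.57, 0.31, 0.22 and 0.24 (SE 0.04, limma adjusted p = 3.13e-08, 1.47e-05, 0.000518 and 0.000246), and each call held without each library.

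Kif13a, which carries receptors to endosomes and the cell surface, fell with every particle, from 15.8, 17.6 and 17.4 FPKM to 12, 12.8 and 12.4 after riebeckite asbestos, 12.7, 13.7 and 13.4 with riebeckite fragments, 14, 14.6 and 14.8 with tremolite asbestos and 13.5, 13.6 and 14.2 with tremolite fragments. The groups did not overlap with untreated cells, and the calls (-0.42, -0.33, -0.21 and -0.28, SE 0.05, limma adjusted p = 7.35e-06, 8.33e-05, 0.00445 and 0.000505) held without each library. Its relative Kif13b went the other way where it was called, with both kinds of fragments (0.13 and 0.14, limma adjusted p = 0.0453 and 0.0468), and these calls ended in 5 and 6 of 6 single omissions (up to 0.15 and 0.138). Kifc3, a minus-end motor, fell with riebeckite asbestos from 1.70 ± 0.279 to 0.909 ± 0.208 FPKM and with riebeckite fragments to 0.849 ± 0.0745 FPKM (-0.50 and -0.54, limma adjusted p = 0.000362 and 0.000239). With tremolite fragments it was called at -0.33 (0.0103, and 0.0513 without untreated replicate 2) and with tremolite asbestos it was not (-0.23, 0.0726).

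Kif3b, a subunit of the heterotrimeric kinesin-2 motor, fell with both riebeckite particles and with tremolite fragments (-0.22, -0.21 and -0.19, limma adjusted p = 0.000859, 0.00114 and 0.00419), while its partners Kif3a and Kifap3 were called with no particle. Of the conventional kinesins, Kif5b was lower with riebeckite fragments (33.3 ± 0.733 to 29.5 ± 1.22 FPKM, -0.17, limma adjusted p = 0.00661). It was also called with riebeckite asbestos (-0.12) and tremolite fragments (-0.15), each ending in 3 of 6 single omissions (up to 0.145 and 0.0702). Kif5a, at 3.34 ± 0.0497 FPKM in untreated cells, was lower with all but tremolite fragments (-0.21, -0.24 and -0.20), and Kif1b with both riebeckite particles by 0.22 each. Kif21a, which limits microtubule growth, rose with riebeckite asbestos and fragments, from 5.50 ± 0.352 to 6.78 ± 0.206 and 6.56 ± 0.0977 FPKM (0.26 and 0.22, limma adjusted p = 0.000764 and 0.00294). With tremolite particles it was at 0.07 and 0.02, not called.

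Asbestos was compared with fragments of the same mineral to ask what habit adds at matched surface area. For riebeckite 8 of the 84 genes were called, 7 lower and 1 higher with asbestos, where 10.6% of all genes were called (6.71% higher, 3.85% lower). This share is near the background. The lower calls alone made up 8.33% of the 84 genes and 3.85% of all genes. The 7 lower genes were Cenpk (-0.42, SE 0.06, limma adjusted p = 0.00189), Ndc80 (-0.26, 0.0214), Anln (-0.21, 0.02), Racgap1 (-0.20, 0.0373), Kif23 (-0.20, 0.0418), Nuf2 (-0.16, 0.0482) and Kif11 (-0.15, 0.0378), and Kif1c was higher (0.26, SE 0.04, limma adjusted p = 0.00075). The calls of Cenpk and Kif1c held without each library. Those of the other 6 ended in 3 to 6 of 6 single omissions, with adjusted p up to 0.146. All 6 ended without asbestos replicate 1 or 3 or fragment replicate 2. The total called, genes newly called included, was 2 without asbestos replicate 1 or fragment replicate 2, 3 without asbestos replicate 3 or fragment replicate 3, and 5 without asbestos replicate 2. After quantile normalization 13 were called. Only the 2 groups in the fit left 2.

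For tremolite 0 of the 84 genes were called between asbestos and fragments by limma, where 0.942% of all genes were called (0.386% higher, 0.556% lower). An unadjusted p under 0.05 was seen for 4 of the 84 genes and for 1162 of the 10616. The test of the difference between minerals called Kif1c (0.28, SE 0.05, limma adjusted p = 0.01) and Ndc80 (-0.37, SE 0.09, 0.0368), 2 of the 84 genes, 1 higher and 1 lower, against 3.93% of all genes (2.65% higher, 1.28% lower). Kif1c was higher with asbestos in riebeckite (0.26) and at -0.01 in tremolite. Ndc80 was lower with asbestos in riebeckite (-0.26) and at 0.11, not called, in tremolite. The call for Kif1c held without each library, with adjusted p up to 0.033. That for Ndc80 ended in 10 of 12 single omissions, with adjusted p from 0.0517 without tremolite fragment replicate 3 to 0.0964 without tremolite fragment replicate 2. Cenpk, the gene with the largest riebeckite difference on the log2(FPKM + 1) scale, was not called in this test (-0.29, limma adjusted p = 0.107).

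**Figure D5:**
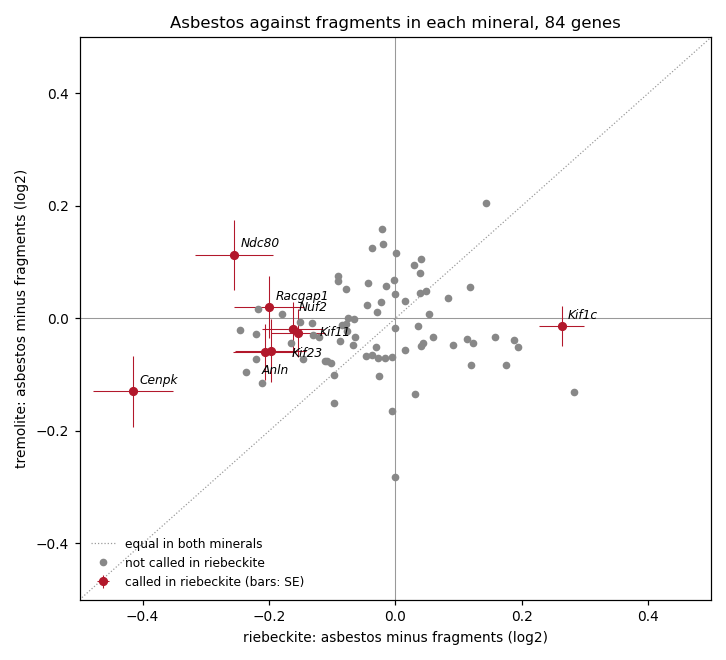
Log2 difference between asbestos and fragments for riebeckite (horizontal) and tremolite (vertical) for the 84 genes, with the 8 genes called in riebeckite in red with SE bars. Kif1c lies at 0.26 for riebeckite and at -0.01 for tremolite, and 0 genes were called for tremolite.

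The minerals were then compared within each habit. Riebeckite asbestos differed from tremolite asbestos in 11 of the 84 genes, 7 higher and 4 lower, where 26.5% of all genes were called (15.5% higher, 11% lower), so a smaller share of the set than of all genes. Higher with riebeckite were Kif1c (0.35, limma adjusted p = 1.38e-05), Kif18b (0.24, 0.00636), Bub1 (0.22, 0.00732), Cdk1 (0.20, 0.00569), Kif21a (0.20, 0.0104), Mki67 (0.22, 0.0262) and Cenpm (0.34, 0.0444). Lower were Ndc80 (-0.29, 0.00416), Kif13a (-0.21, 0.00491), Kifc3 (-0.27, 0.032) and Kif20a (-0.13, 0.0376). Cdk1, called with no particle against untreated cells, was at 18.1, 16.6 and 17.0 FPKM after riebeckite asbestos and at 14.5, 14.8 and 15.4 after tremolite asbestos, without overlap, as for 25 of the 84 genes and 40.6% of all genes. The calls of Cenpm, Mki67, Kif20a and Kifc3 ended in 6, 4, 3 and 4 of 6 single omissions (up to 0.126, 0.103, 0.147 and 0.117). Called were 7 without riebeckite asbestos replicate 1 and 18 without tremolite asbestos replicate 1, and the split turned to 7 higher and 11 lower after TMM rescaling and to 6 and 11 after quantile normalization.

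Between the fragments of both minerals 4 of the 84 genes were called, where 11.3% of all genes were (5.31% higher, 6.01% lower). Kif21a (0.20, limma adjusted p = 0.0198) and Cdk1 (0.15, 0.0477) were higher and Kif21b (-0.25, 0.0269) and Kif5a (-0.17, 0.0444) lower with riebeckite. None of these 4 calls held without each library. Called were 1 without riebeckite fragment replicate 1 or 3 or tremolite fragment replicate 2, and 2 without tremolite fragment replicate 1 or 3. The split became 5 higher and 1 lower after TMM rescaling and after quantile normalization.

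The deposited transcript table held 170 transcripts of 83 of the 84 genes, with no entry for Kif9, and 167 were tested. Of these 19 were called with riebeckite asbestos, 14 with riebeckite fragments, 6 with tremolite asbestos and 9 with tremolite fragments, where 13, 10.3, 5.02 and 6.29% of all transcripts were called. The shares of these transcripts were 11.4, 8.38, 3.59 and 5.39%, near or below the background. Anln-201, Kif11-201, Kif15-201 and Top2a-201 were lower with all 4 particles. Kif1c had 5 transcripts, of which Kif1c-202 rose with riebeckite asbestos from 8.58, 9.18 and 10.0 FPKM to 19.5, 17.9 and 26.5 (1.10, limma adjusted p = 0.0146) and Kif1c-205 from 1.48 ± 0.281 to 2.85 ± 0.352 (0.64, 0.0223). Kif1c-204, the most abundant in untreated cells at 13.4 ± 1.28 FPKM, was at 14.9 ± 3.36 and not called. Of the 4 Kif13a transcripts, Kif13a-201 was lower with all but tremolite asbestos (15.3 ± 1.03 to 10.6 ± 0.415 FPKM with riebeckite asbestos, -0.49, limma adjusted p = 0.000397). The number called was sensitive to single libraries: with riebeckite asbestos it was 12 without asbestos replicate 3, and with tremolite fragments 1 without untreated replicate 2 or fragment replicate 2, 2 without untreated replicate 3 and 4 without fragment replicate 1. With riebeckite fragments it was 5 without untreated replicate 2 and 8 without fragment replicate 1 or 3. With tremolite asbestos it was 2 without untreated replicate 2 and 3 without untreated replicate 3 or any asbestos library. Gene values were not sums of these transcripts, the ratio of the sum to the gene value reaching 3.20 for Birc5.

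Genes that work beside the set were counted from lists of the same pathways, to be read against 24.3, 23.1, 13.9 and 15% of all genes called lower and 21, 15.3, 10 and 12.5% called higher. Of 22 condensin and cohesin genes, which compact chromosomes and hold sister chromatids, 13, 9, 10 and 10 were lower with riebeckite asbestos, riebeckite fragments, tremolite asbestos and tremolite fragments, and 0 were higher with any of them. List medians were -0.18, -0.11, -0.19 and -0.21, against -0.02, -0.04, -0.03 and -0.02 over all genes. The condensin genes Ncapg (-0.35, -0.15, -0.24 and -0.22) and Ncapd3 (-0.37, -0.28, -0.29 and -0.26) were lower with all 4. Of 26 DNA replication genes 14, 15, 19 and 20 were lower and 1, 1, 0 and 0 higher, with Mcm6, a subunit of the replicative helicase, at -0.41, -0.42, -0.51 and -0.48. Of 8 G1 cyclins and kinases 4, 5, 4 and 4 were lower and 1 higher with each particle, led by cyclin D1, Ccnd1, from a mean of 12.1 FPKM to 2.94, 3.47, 6.62 and 4.45.

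The anaphase-promoting complex list (17 genes) had 4 higher and 3 lower with riebeckite asbestos and 0 higher with the others, where 2, 1 and 1 were lower. These lower counts include the inhibitor of the complex, Fbxo5 (Emi1), which was lower with all 4 particles (-0.52, -0.41, -0.47 and -0.42). With each tremolite particle Fbxo5 was the only lower gene of the list. Of 21 other kinetochore and checkpoint genes measured 6, 5, 5 and 7 were lower and 0, 1, 0 and 0 higher. The lower shares of 28.6 and 23.8% with the riebeckite particles were near the background, and those with the tremolite particles were 23.8 and 33.3%. Of 22 other spindle and cytokinesis genes 7, 4, 5 and 4 were lower and 2, 1, 0 and 0 higher. The lower shares were 31.8, 18.2, 22.7 and 18.2%, that with riebeckite fragments below the background and that with tremolite fragments near it. The smallest p of this list were of lower genes with riebeckite asbestos (Dlgap5, mean 7.26 to 5.48 FPKM), tremolite asbestos (Melk, 8.76 to 7.28) and tremolite fragments (Iqgap3, 2.92 to 2.33). Gtse1 was among the higher ones with both riebeckite particles (0.32 and 0.27). Of 18 centrosome genes 6, 6, 5 and 5 were lower and 2, 1, 1 and 1 higher, and Cdk5rap2, which anchors microtubule nucleation at centrosomes, rose with all 4 (0.63, 0.46, 0.38 and 0.41). Of 21 G2/M regulators 6, 6, 10 and 8 were lower and 3, 2, 0 and 0 higher, with the transcription factor Mybl2 at -0.37, -0.29, -0.47 and -0.43. The lower shares were 28.6% with both riebeckite particles, near the background, and 47.6 and 38.1% with the tremolite particles. Of 12 CDK inhibitors and antiproliferative genes 4, 4, 4 and 5 were higher and 4, 4, 2 and 2 lower. The smallest p of this list with riebeckite asbestos were those of Btg2 and Cdkn2c, and both were lower. Their means went from 19 and 11.4 FPKM in untreated cells to 13.5 and 8.90 after riebeckite asbestos. Btg2 was also lower with riebeckite fragments, at 13.1 FPKM. Ccng2, an atypical cyclin linked to cell-cycle exit, was higher with all 4 (0.15, 0.27, 0.32 and 0.48), as was the inhibitor Cdkn1c (0.48, 0.61, 1.00 and 0.66), whose mean level was 0.0748 FPKM in untreated cells and which passed the filter through the treated groups, so it had to differ.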

How the data were processed

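Per the labels' protocols, mRNA was selected with oligo(dT) and libraries used dUTP. The authors deposited FPKM per gene (10653) and per transcript (22795), a unit read from the values. Their tools, per the submitters' processing notes, were cutadapt, HISAT2, StringTie and the build GRCm38, with versions and settings not given in the sources used here. FPKM are relative to all transcripts of a library. Low values showed no whole-read steps, so depth is unknown and a count test was not possible. Each deposited gene reached a group mean of 0.5003 FPKM somewhere.

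Genes (10616) and transcripts (22038) with 0.5 FPKM in 3 or more libraries entered limma 3.58.1 (R 4.3.3, eBayes with trend) as log2(FPKM + 1), in 1 fit by group, with Benjamini-Hochberg adjustment per comparison at 0.05. The code was tested on simulated data, with a pass mark set only for changes of 1 on the log2(FPKM + 1) scale. No gene of the set reached that size, so the pass does not cover changes of the size reported here. Alternatives tried were TMM and quantile scaling, a pseudocount of 0.1, no filter or a minimum mean of 5 FPKM, a replicate block, fits of the compared groups alone, no trend, summed transcripts, and leaving out each library.

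Genes named by rule were the 6 with the smallest adjusted p per comparison and 18 named whatever their p. Other genes were named by role, and pathway genes from the smallest p of their list. The members and lists were chosen with earlier results of these data known. RefSeq promoters (250 bases before the start) were searched with Python 3.11.15, and plots used matplotlib 3.10.9.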

Additional observations from a re-analysis of the deposited data

Results flagged for a closer look

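The effect of asbestos against fragments differed between the minerals for Kif1c and Ndc80 in the test of that difference. For Kif1c it was higher in riebeckite than in tremolite by 0.28 on the log2 scale, and for Ndc80 the difference was -0.37. The Kif1c call held without each library, and that of Ndc80 did not, as given with the comparison. No group had the 4 libraries that a check for single outlying samples needs.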

How the results depend on the processing

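Main counts of the 84 genes called were 48, 26, 22 and 25 against untreated cells (riebeckite asbestos, riebeckite fragments, tremolite asbestos, tremolite fragments), 8 for riebeckite asbestos against fragments, 0 for tremolite, 11 between the asbestos and 4 between the fragments of both minerals, and 2 for the difference between minerals. Sums of transcripts gave 17 for riebeckite fragments, 14 for tremolite asbestos, 5 between asbestos, 1 between fragments and 1 for the difference. Quantile normalization gave 13 for riebeckite asbestos against fragments and 17 between asbestos, TMM rescaling 18 between asbestos, and only the groups compared 2, 7 and 1 for riebeckite habit, asbestos and fragments. Replicate numbers were not taken as pairs, since no comparison had all 3 same-number correlations over 0.1. For riebeckite asbestos and fragments, however, each of the 3 libraries correlated best with its own number (0.0308, 0.172 and 0.101). Whether these libraries were paired is therefore not settled. With the replicate block 18 genes were called between asbestos. Leaving out each library gave 35 to 43, 18 to 25, 14 to 22 and 17 to 24 against untreated cells, 2 to 7 for riebeckite habit, 0 to 0 for tremolite habit, 7 to 18 between asbestos, 1 to 3 between fragments and 1 to 2 for the difference, and for transcripts 12 to 17, 5 to 11, 2 to 5 and 1 to 7. The cause of these shifts was not tested.

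Of single genes, Cenpk with tremolite asbestos turned to 0.15 with sums of transcripts. The other turns of sign were in genes not called. Sums of transcripts gave Cdk1 0.0858 with tremolite asbestos and 0.0447 with tremolite fragments, Ccnb1 0.0806 with tremolite asbestos, and Cenpa -0.0558 with riebeckite and 0.11 with tremolite asbestos. TMM rescaling gave Cenpf 0.00465 with riebeckite fragments and 0.0179 with tremolite asbestos, and quantile normalization 0.00499 with the latter. Single omissions gave, with tremolite asbestos, ranges of -0.0314 to 0.096 for Mki67, -0.0454 to 0.0600 for Bub1, -0.155 to 0.0387 for Cenpa, -0.136 to 0.0331 for Cenpe and -0.0639 to 0.0483 for Cenpf. With tremolite fragments they gave -0.0151 to 0.0325 for Ccnb1, -0.116 to 0.0158 for Cenpe and -0.0302 to 0.0759 for Cenpf, with riebeckite fragments -0.116 to 0.0164 for Cenpe and -0.0887 to 0.0173 for Cenpf, and with riebeckite asbestos -0.0231 to 0.0625 for Cenpa. Over all alternatives of the named genes, 1362 values kept direction and side of the threshold, 122 lost the call and 15 gained one.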
